A study of Nothobranchius furzeri with 15 samples.

Results

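Of 15834 genes tested in killifish liver, 90 (0.568%) were high only at 15 pM rotenone. A gene was chosen when its lowest library among the 5 of 15 pM lay above its highest library among the 10 of DMSO and 150 pM, and when the ranges of DMSO and 150 pM overlapped. Levels are CPM, read counts expressed per unit of sequencing depth after TMM scaling (trimmed mean of M-values), and genes with a mean over 1000 CPM were not eligible. These values chose the genes, so their differences between 15 pM and the other groups, and the overlap of 150 pM with DMSO, are given as descriptions, and no test of them is taken as a result.

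The livers came from male turquoise killifish (Nothobranchius furzeri, an annual fish) of GRZ, an inbred strain kept in laboratories, and the fish were 9 weeks old. DMSO, the solvent, was given to the first group (libraries 1 to 5), 15 pM rotenone to the second (libraries 1 to 5) and 150 pM rotenone to the last (libraries 8 to 12), with library numbers taken from the sample titles. All 3 groups share strain, sex, age and tissue, and nothing in the labels says how long the fish were exposed, whether each library is a different fish, or which fish shared a tank or a sequencing run. Differences of that kind and the groups cannot be told apart. Each p-value here reflects the scatter among these libraries, part of which may be technical.

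Rotenone, a compound made by plants, inhibits respiratory complex I in mitochondria, where it blocks the transfer of electrons to ubiquinone. Hepatocytes depend on mitochondria for fatty acid oxidation, glucose production and ammonia disposal, and cells that lose complex I activity can change nuclear gene expression through redox and energy signals. A readout that moves at a low dose and not at a higher one is called non-monotonic.

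Total counts ranged from 22185038 to 35672589 per library. At 15 pM, library 4 stood apart, with a median correlation of 0.855 with the rest of its group over all genes tested, against 0.936 to 0.972 for the other 14 libraries. Libraries 8 and 10 of 150 pM stood apart on the second principal component, at 69.8 and 59.6, where the other 3 of their group lay between -0.80 and 9.34. The 15 pM group was also spread on this component, with library 2 at -65.7, library 4 at 22.7 and the others between -41.3 and -28.3. The deposited identifiers carry no gene symbols, and 0 of them matched a RefSeq table of 38438 genes, so the genes are named by identifier, their functions are not given, and the liver label could not be checked against marker genes. The libraries were not stranded, so reads from genes that overlap on opposite strands cannot be told apart by strand. Reads from near-identical copies can also be ambiguous, and how such reads were counted is not given.

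The 90 genes fell into a small group far above the other libraries and a large group just above them. The gap is the ratio of the lowest 15 pM library to the highest of the 10 others. It was over 3 in 7 genes, between 1.2 and 3 in 1 gene, from 1.1 to 1.2 in 11 and under 1.1 in 71, with a median of 1.04. The 7 genes with a gap over 3 are called the leading genes. All 7 lay in 2 short stretches of the file, 5 of them within rows 11088 to 11096 and the other 2 in rows 20265 and 20266. The files give no chromosome positions, and the row order is that of the deposited table, so neighbouring rows are not shown to be neighbours in the genome.

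**Figure D1:**
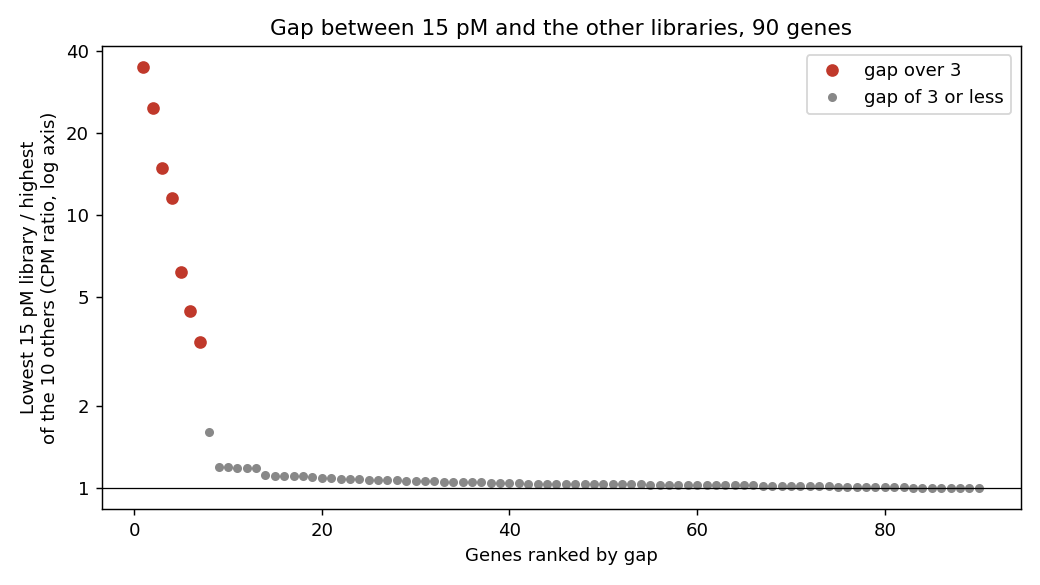
Each point is 1 of the 90 genes, ranked along the horizontal axis by its gap, and the vertical axis (logarithmic) gives the gap as a ratio of CPM values, with the line at 1 marking equality. The 7 leading genes lie between 3.44 and 35.0, the next gene is at 1.61, and the rest lie close to 1.

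The first 3 leading genes stood in rows 11088 to 11090 and were raised to a similar extent in every 15 pM library. Nfu_g_1_007507 had the widest gap, 35.0. Its libraries held 0.707, 1.08, 3.09, 1.48 and 1.67 CPM in DMSO, 167, 192, 133, 108 and 186 CPM at 15 pM, and 1.08, 0.957, 0.269, 0.979 and 0.854 CPM at 150 pM. No 15 pM library lay below 108 CPM, and none of the 10 others exceeded 3.09 CPM. Summed over the 5 libraries of a group, 219 reads in DMSO, 20874 reads at 15 pM and 106 reads at 150 pM stand behind these levels. On the log2 scale the gene was 6.62 (SE 0.44) higher at 15 pM than in DMSO and 7.57 (SE 0.46) higher at 15 pM than at 150 pM. Each SE printed here is back-calculated from the edgeR quasi-likelihood F-test. It is the absolute log2 difference divided by the square root of F, and so is no estimate separate from that test.

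Nfu_g_1_007705, in the row before it, was also high in every 15 pM library, at lower CPM. DMSO libraries held 0.0488, 0.149, 0.470, 0.111 and 0.159 CPM, 15 pM libraries 20.9, 13.4, 11.7, 12.2 and 15.7 CPM, and 150 pM libraries 0.120, 0.0832, 0.0672, 0.109 and 0.244 CPM. The 15 pM group stood apart from both others, its lowest library 24.8 times the highest of the 10 others, which was DMSO library 3. The log2 difference was 6.33 (SE 0.44) at 15 pM against DMSO and 6.86 (SE 0.47) at 15 pM against 150 pM, the first of these being 7.02 without DMSO library 3. The DMSO group had 25 reads, the 15 pM group 1956 and the 150 pM group 16, so few reads underlie the levels outside 15 pM.

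Nfu_g_1_007603, in the row after, had a higher level outside 15 pM. Its DMSO libraries held 3.22, 4.69, 4.66, 26.0 and 2.90 CPM, its 15 pM libraries 134, 116, 89.4, 109 and 123 CPM, and its 150 pM libraries 6.96, 5.28, 1.31, 6.67 and 3.13 CPM. The groups of 15 pM and DMSO did not overlap, although DMSO library 4 stood well above its own group and narrowed the gap to 3.44. The log2 difference was 3.79 (SE 0.63) at 15 pM against DMSO, and 4.91 without DMSO library 4. Against 150 pM it was 4.61 (SE 0.65).

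The other 2 genes of this stretch, in rows 11094 and 11096, differed more among the 15 pM libraries. Nfu_g_1_007753 held 0.220, 0.446, 0.157, 4.14 and 0.0398 CPM in DMSO, 59.2, 30.4, 25.8, 28.7 and 59.2 CPM at 15 pM, and 1.04, 0.458, 0, 2.72 and 1.42 CPM at 150 pM. Nfu_g_1_007560 held 0.146, 0.0744, 0.157, 1.04 and 0.0795 CPM in DMSO, 26.8, 6.59, 6.28, 4.63 and 27.5 CPM at 15 pM, and 0.0800, 0, 0, 0.218 and 0.0407 CPM at 150 pM. In both genes 15 pM libraries 1 and 5 were the highest, and DMSO library 4 was the highest of its group, as it was for Nfu_g_1_007603. No other members had a library with 0 counts, which allows up to 3 counts, or 0.101 to 0.125 CPM in the libraries of 150 pM, for counting error only.

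On the log2 scale Nfu_g_1_007753 was 5.35 (SE 1.03) higher at 15 pM than in DMSO, and 7.53 higher without DMSO library 4. Against 150 pM the difference was 5.17 (SE 1.03), and 5.85 without 150 pM library 11. Nfu_g_1_007560 was 5.58 (SE 0.84) higher at 15 pM than in DMSO and 6.91 higher without DMSO library 4. Its difference from 150 pM was 7.62 (SE 0.99), or 8.78 without 150 pM library 11, and rests on only 9 counts over the 5 libraries of 150 pM. The direction was the same in each case, and the size depended on 1 library with a higher level in the lower group.

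The second stretch, rows 20265 and 20266, had another order among the 15 pM libraries. Nfu_g_1_023228 held 0.439, 0.223, 0.901, 0.481 and 0.398 CPM in DMSO, 187, 13.5, 18.1, 62.0 and 57.5 CPM at 15 pM, and 0.520, 0.541, 0.0336, 0.616 and 0.244 CPM at 150 pM. Nfu_g_1_022937 held 0.146, 0.335, 0.196, 0.259 and 0.239 CPM in DMSO, 71.5, 3.86, 4.85, 34.3 and 15.3 CPM at 15 pM, and 0.280, 0.0832, 0.0672, 0.181 and 0.122 CPM at 150 pM. In both, library 1 was the highest, libraries 4 and 5 followed and libraries 2 and 3 were the lowest, so that the 15 pM group spanned 13.9-fold and 18.5-fold from lowest to highest. Even the lowest 15 pM library stood 14.9 and 11.5 times above the highest of the 10 others.

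Nfu_g_1_023228 was 7.11 (SE 0.81) higher on the log2 scale at 15 pM than in DMSO and 7.43 (SE 0.83) higher than at 150 pM. These became 6.30 and 6.62 without 15 pM library 1. For Nfu_g_1_022937 the log2 differences were 6.78 (SE 0.82) at 15 pM against DMSO and 7.43 (SE 0.86) at 15 pM against 150 pM, or 5.98 and 6.63 without 15 pM library 1. Leaving out 15 pM library 4, the library that stood apart over all genes, changed the log2 differences of the 7 leading genes little. Against DMSO they then lay at 6.76 for Nfu_g_1_007507, 3.82 for Nfu_g_1_007603 and 7.17 for Nfu_g_1_023228.

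**Figure D2:**
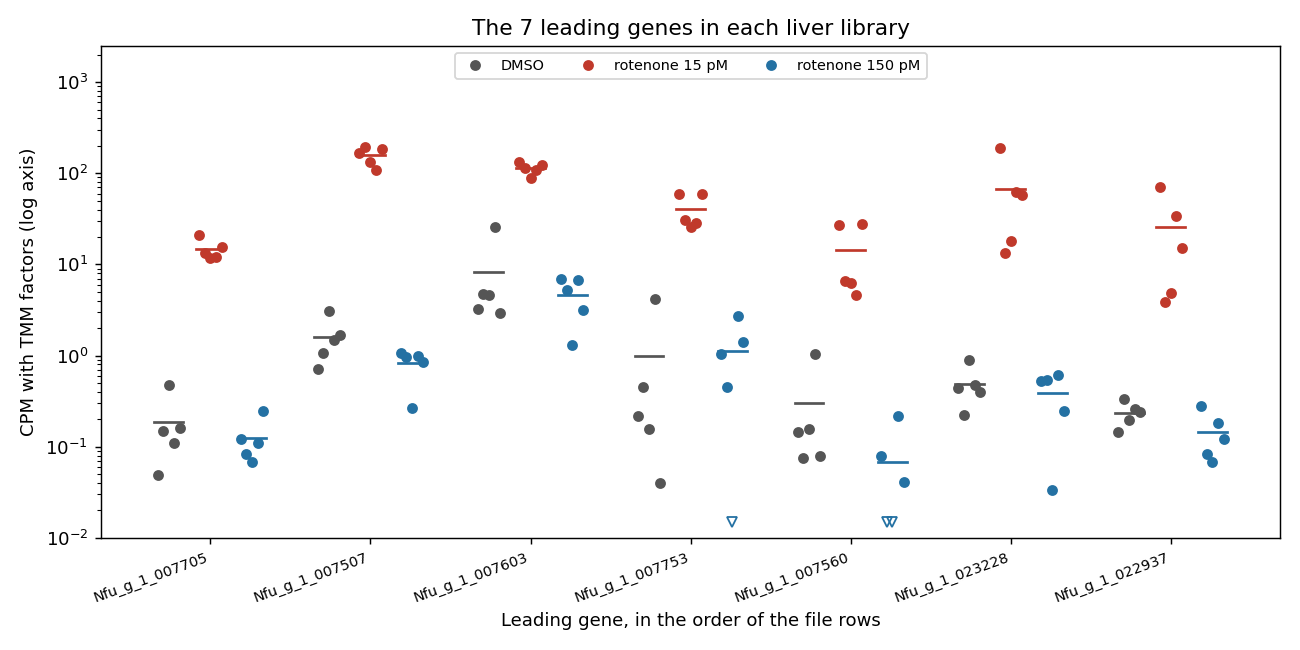
CPM (logarithmic axis) of the 7 leading genes in the 15 libraries, with 5 points a group in library order, a bar at the group mean and open triangles at the foot for libraries with 0 counts. Every 15 pM library lies above all DMSO and 150 pM libraries in each gene, and the spread at 15 pM is widest in the 2 genes on the right and in Nfu_g_1_007560.

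Summed over its 5 leading genes, the first stretch held 11.4 ± 12.1 CPM in DMSO, 341.6 ± 73.3 CPM at 15 pM and 6.82 ± 3.50 CPM at 150 pM (SD, n = 5 each). The DMSO mean was 6.04 ± 1.89 CPM without library 4 (SD, n = 4). The sum of the second stretch was 0.723 ± 0.220 CPM in DMSO, 93.6 ± 98.1 CPM at 15 pM and 0.538 ± 0.302 CPM at 150 pM (SD, n = 5 each). Library 1 held 259 CPM of the second sum at 15 pM, and the mean without it was 52.3 ± 38.5 CPM (SD, n = 4). In whole-liver RNA, more cells that hold a transcript and more of it per cell cannot be told apart.

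The tested genes between the leading genes did not pass the test as higher at 15 pM. Of the 9 rows from 11088 to 11096, 5 were leading genes, 2 were tested genes outside the set and 2 were too low to test. The tested gene in row 11091, Nfu_g_1_007730, was abundant in all groups, at 636 ± 308 CPM in DMSO, 711 ± 336 CPM at 15 pM and 955 ± 414 CPM at 150 pM (SD, n = 5 each). Its level did not pass the test at 15 pM against DMSO (log2 difference 0.16, SE 0.38, edgeR adjusted p = 0.877) or at 15 pM against 150 pM (log2 difference -0.43, SE 0.38, edgeR adjusted p = 0.478).

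Nfu_g_1_007595, in row 11093, has a recovered length of 444 bases, the same as Nfu_g_1_007507, and was low in all groups. It held 1.88 ± 1.15 CPM in DMSO, 1.36 ± 0.698 CPM at 15 pM and 2.19 ± 1.18 CPM at 150 pM (SD, n = 5 each), and 15 pM against DMSO missed the threshold (log2 difference -0.46, SE 0.46, edgeR adjusted p = 0.649). The untested rows held 7 counts over all 15 libraries in Nfu_g_1_007564 and 0 counts in Nfu_g_1_007614. The 2 rows after the stretch, Nfu_g_1_007654 and Nfu_g_1_007641, were higher on average at 15 pM than in DMSO without passing the test, with log2 differences of 1.06 (SE 0.43, edgeR adjusted p = 0.191) and 0.86 (SE 0.43, edgeR adjusted p = 0.312). Their means at 150 pM were also above those of DMSO, with overlapping ranges, and no test of that difference is given here. Nfu_g_1_007654 averaged 455 ± 229 CPM in DMSO, 948 ± 494 CPM at 15 pM and 808 ± 403 CPM at 150 pM (SD, n = 5 each). For Nfu_g_1_007641 these were 233 ± 94.0, 422 ± 212 and 370 ± 213 CPM (SD, n = 5 each). At 15 pM against 150 pM the log2 differences were 0.23 (SE 0.42, edgeR adjusted p = 0.751) and 0.19 (SE 0.43, edgeR adjusted p = 0.799).

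Beside the second stretch, row 20267 (Nfu_g_1_023109) was too low to test. It had 63 counts in 15 pM library 3 and 31 counts in 15 pM library 4, at most 3 counts in any other library, and 0 counts in 15 pM libraries 1, 2 and 5. These 2 libraries were not the highest for the leading genes next to it. The nearest other genes of the set stood in rows 11040 and 11128 around the first stretch and in rows 20213 and 20837 around the second.

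**Figure D3:**
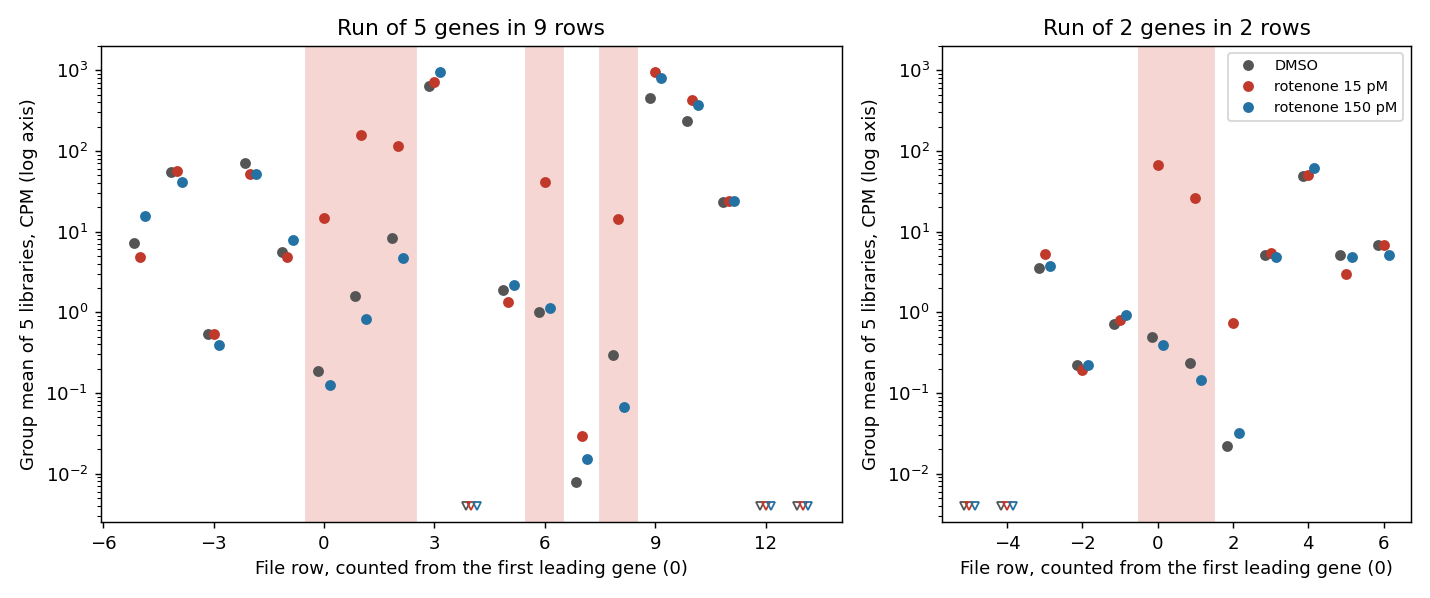
Group means over 5 libraries (CPM, logarithmic axis) for consecutive rows of the deposited table around the 2 stretches, with the horizontal axis counting rows from the first leading gene of each. Shaded rows are leading genes, where the 15 pM mean stands well above the other 2, and open triangles at the foot mark groups with 0 counts.

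The recovered gene lengths of the leading genes were short. They measured 435, 444, 435, 1416 and 1180 bases in the first stretch, in row order, and 915 and 432 bases in the second. Thus 4 of the 7 were shorter than 450 bases, as were 6 of all 90 members, against 620 of all 15834 genes tested (3.92%). This limit lies just above the lengths of those 4 genes, and several of them stand in adjacent rows. The share is therefore a description only. The median length was 444 bases in the 7 leading genes, 1901 bases in the other 83 and 2811 bases in all genes tested. When each library's trend with gene length was removed before the choice, 119 genes were chosen with a median length of 3357 bases, 79 of the 90 were among them, and all 7 leading genes were kept.

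Among the other 83 genes the rise at 15 pM was small. Their log2 differences ran from 0.10 to 2.11 against DMSO, with a median of 0.42, and from 0.17 to 2.71 against 150 pM, with a median of 0.50. Over all genes tested the medians were 0.03 in both comparisons. Summed, the 83 genes held 2179 ± 148 CPM in DMSO, 3418 ± 401 CPM at 15 pM and 2058 ± 292 CPM at 150 pM (SD, n = 5 each). Only 5 of them had a mean at least 2-fold above that of DMSO.

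Those 5 genes, named here because of their values, were Nfu_g_1_013791, Nfu_g_1_015305, Nfu_g_1_011904, Nfu_g_1_015059 and Nfu_g_1_012898. Nfu_g_1_013791 held 70.6, 88.8, 111, 57.8 and 86.2 CPM in DMSO, 983, 132, 190.0, 181 and 304 CPM at 15 pM, and 65.9, 69.7, 106, 28.7 and 65.6 CPM at 150 pM. Library 1 stood far above the other 4 of 15 pM, and the lowest, library 2, lay 1.19 times above the highest of the others. Its log2 difference of 2.11 (SE 0.50) at 15 pM against DMSO became 1.32 without 15 pM library 1. Against 150 pM it was 2.41 (SE 0.51), and 1.62 without that library.

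Nfu_g_1_011904 had the next widest gap after the leading genes, at a very low level. It held 0.268, 0.186, 0.157, 0.481 and 0.119 CPM in DMSO, 0.804, 0.773, 0.775, 1.11 and 0.878 CPM at 15 pM, and 0.0400, 0.125, 0.0336, 0.363 and 0.0814 CPM at 150 pM. The 15 pM libraries lay close together and 1.61 times above DMSO library 4, the highest of the others, with sums of 36 reads for DMSO, 115 for 15 pM and 17 for 150 pM. Its log2 difference was 1.81 (SE 0.49) at 15 pM against DMSO and 2.71 (SE 0.52) at 15 pM against 150 pM, the second being 3.62 without 150 pM library 11. Nfu_g_1_015305 averaged 0.273 ± 0.168 CPM in DMSO, 1.14 ± 0.644 CPM at 15 pM and 0.172 ± 0.114 CPM at 150 pM (SD, n = 5 each). The 15 pM libraries of that gene ranged from 0.593 to 2.22 CPM, lowest in library 4 and highest in library 1.

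Nfu_g_1_015059 averaged 5.67 ± 2.49 CPM in DMSO, 13.7 ± 3.21 CPM at 15 pM and 5.60 ± 2.01 CPM at 150 pM (SD, n = 5 each). Nfu_g_1_012898 averaged 24.6 ± 3.57 CPM in DMSO, 52.6 ± 28.4 CPM at 15 pM and 26.2 ± 5.48 CPM at 150 pM (SD, n = 5 each). In the second of these the 15 pM maximum, 102 CPM, was in library 4, and the other 4 held 33.6 to 49.6 CPM.

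The most abundant member per unit of length was Nfu_g_1_017170. Levels per length are RPKM, which divides the CPM by the gene's length in kilobases and was computed here from the counts. Nfu_g_1_017170 averaged 431 RPKM at 15 pM, followed by Nfu_g_1_007507 at 355 RPKM, Nfu_g_1_007603 at 263 RPKM and Nfu_g_1_013791 at 207 RPKM. All members ranged from 0.218 to 431 RPKM at 15 pM, with a median of 9.60 RPKM, against 2.78 RPKM for all genes tested. In the other groups Nfu_g_1_007507 averaged 3.62 RPKM in DMSO and 1.86 RPKM at 150 pM.

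In CPM, Nfu_g_1_017170 held 442, 553, 649, 563 and 692 in DMSO, 858, 994, 779, 1146 and 1012 at 15 pM, and 565, 715, 758, 295 and 474 at 150 pM. The groups came close, since 15 pM library 3 lay only 1.03 times above 150 pM library 10. The log2 difference was 0.72 (SE 0.23) against DMSO and 0.77 (SE 0.23) against 150 pM. Nfu_g_1_011760, among the 4 members with the highest CPM at 15 pM, was steadier. It held 104, 103, 101, 121 and 102 CPM in DMSO, 168, 160.5, 144, 146 and 151 CPM at 15 pM, and 87.5, 95.1, 116, 103 and 105 CPM at 150 pM. Its log2 differences were 0.54 (SE 0.11) at 15 pM against DMSO and 0.60 (SE 0.11) at 15 pM against 150 pM.

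A further pair of members stood in adjacent rows, 16959 and 16960, with gaps of 1.04 each. Nfu_g_1_022401 held 3.22 to 3.88 CPM in DMSO, 4.21 to 12.7 CPM at 15 pM and 2.60 to 4.03 CPM at 150 pM. Its highest value, 12.7 CPM, was that of 15 pM library 4, and the log2 difference of 0.86 (SE 0.26) at 15 pM against DMSO was 0.48 without it. Nfu_g_1_022362 held 5.62 to 8.03 CPM in DMSO, 9.23 to 12.2 CPM at 15 pM and 6.82 to 8.91 CPM at 150 pM, with library 2 the highest at 15 pM. Together with the leading genes in adjacent rows, 7 of the 90 members had another member in the next row.

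At the edge of the rule, members and non-members hardly differed. The 2 members with the smallest gaps were Nfu_g_1_004149, whose lowest 15 pM library (library 4, 7.44 CPM) stood 1.00009 times above the highest of the others, and Nfu_g_1_012446, with 24.6 to 31.1 CPM at 15 pM and 21.1 to 24.5 CPM in the others. Just outside lay Nfu_g_1_018066, with a lowest 15 pM library of 14.7 CPM and a highest other library of 14.8 CPM, and Nfu_g_1_011437, with 69.8 CPM and 69.9 CPM. With the clause on overlapping ranges left out, 98 genes met the rule, and the limit of 1000 CPM removed 0 genes.

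Libraries differed in how far the set rose. The median log2 difference of the 90 members from the DMSO mean was 0.41, 0.46, 0.37, 0.58 and 0.41 in 15 pM libraries 1 to 5. Library 4 was the highest of its group in 35 members, and library 3 the lowest in 35. The coefficient of variation at 15 pM had a median of 12.4% over the members and ran from 3.25% to 108.8%, and in 10 members the highest 15 pM library was at least 2-fold above the lowest. Of the libraries outside 15 pM, DMSO library 3 was the highest for 19 members and 150 pM library 9 for 17. Shares of all genes for these counts of highest and lowest libraries are not given here. The counts are therefore not read as a property of the members, and 15 pM library 4 also stood apart over all genes tested.

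**Figure D4:**
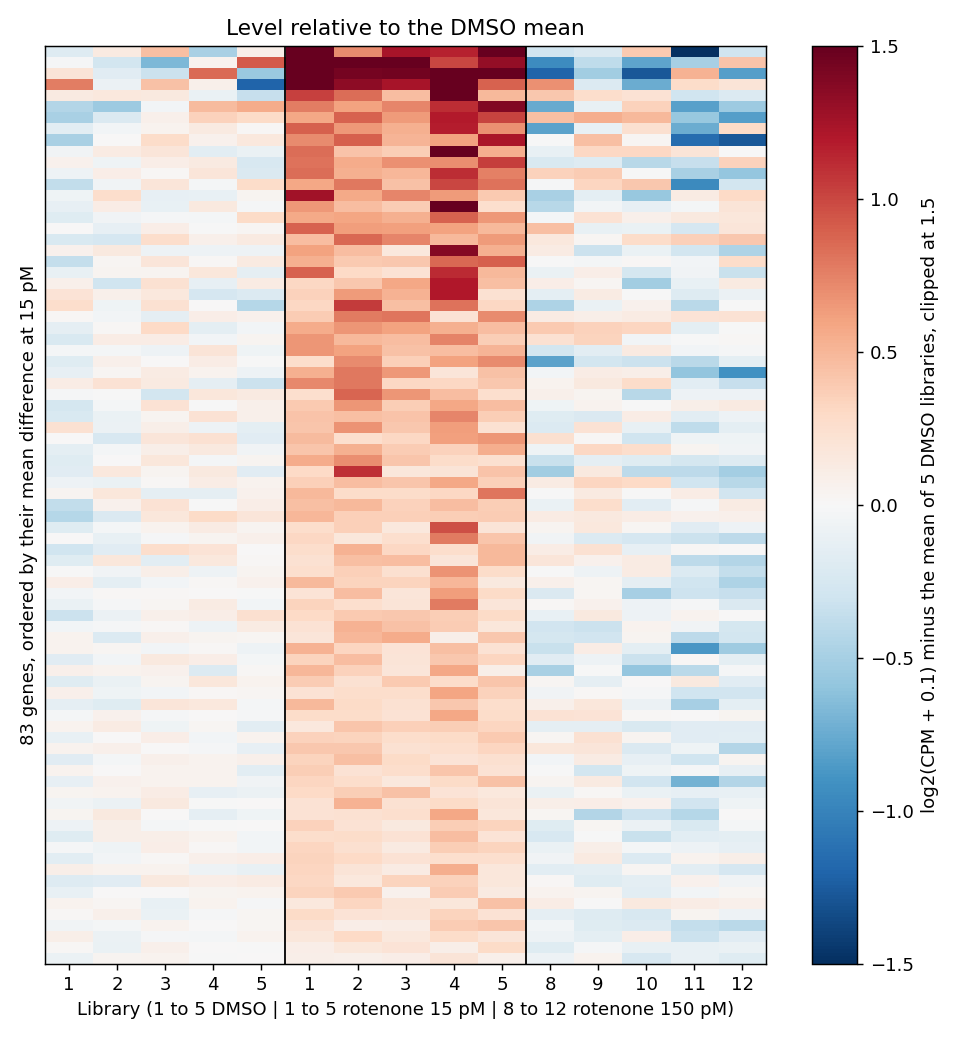
Heat map of the 83 members other than the leading genes (rows) in the 15 libraries (columns), as log2(CPM + 0.1) minus the mean of the 5 DMSO libraries, clipped at 1.5 either way. The 15 pM columns are red in nearly every row, and most rows change by less than 1 on this scale. Library 4 is the highest of its group in 35 rows, and the share over all genes is not given.

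The choice asks for no overlap in these 15 libraries, so a library left out of it was also described. That library was still set against the libraries that chose the genes. Genes were chosen by the same rule on 14 libraries, with the filter on low counts applied to those 14 and TMM factors recomputed for all 15, and the library left out was then compared with the rest. Of the genes chosen without a 15 pM library, 67.9%, 79.4%, 61.9%, 52.9% and 56.9% lay above all others in the omitted libraries 1 to 5. Over all genes tested these shares were 15.5%, 16.8%, 13.0%, 25.8% and 11.1%. For omitted DMSO libraries, 78.3% to 90.2% lay below all 15 pM libraries, against 11.2% to 15.7% of all genes. For omitted 150 pM libraries these shares were 74.3% to 94.0%, against 18.7% to 22.1%. The genes chosen on 14 libraries already had their 15 pM libraries above the rest. Even with no difference between groups, an omitted library would then lie on the chosen side more often than over all genes. The share over all genes is therefore no chance rate for the chosen genes, and replication is not read from the difference.

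The 7 leading genes were picked on all 15 libraries. Their holding in an omitted library therefore largely follows from that choice and is no separate evidence. All 7 were chosen and held each time, with 1 exception. Without DMSO library 1, Nfu_g_1_007507 was not chosen and the other 6 held. Its lowest DMSO library was then 1.06 CPM and its highest 150 pM library 1.05 CPM, so the ranges just missed each other, whereas with the factors used elsewhere these values were 1.079 and 1.080 CPM and the ranges overlapped. Library 4 of 15 pM had both the lowest share of chosen genes that held and the highest share over all genes.

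**Figure D5:**
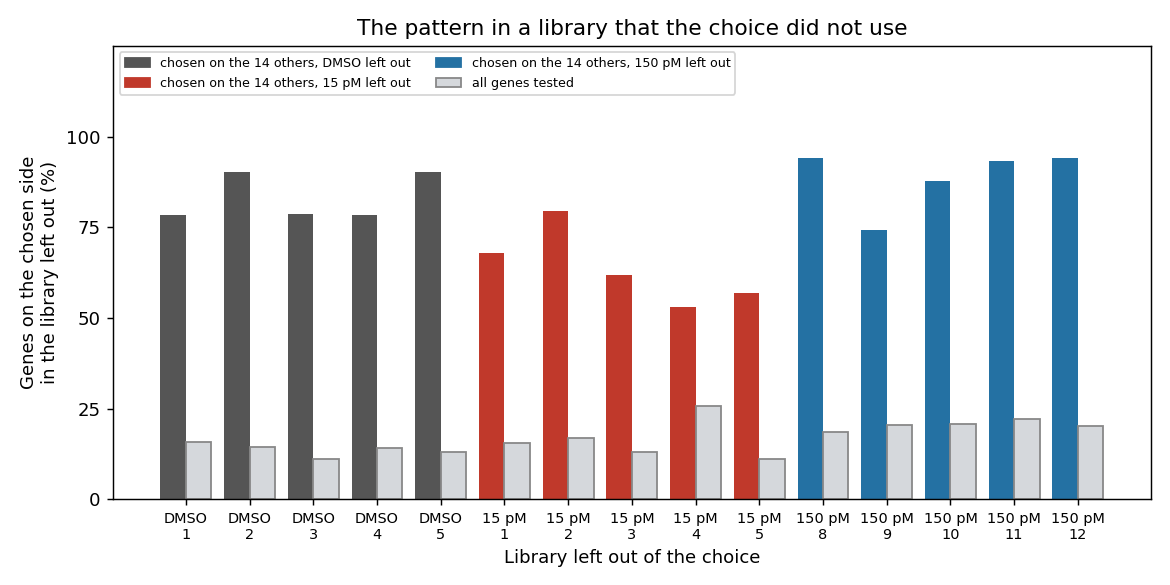
For each library left out of the choice (horizontal axis, named by group and number), the coloured bar gives the percentage of genes chosen on the other 14 libraries that kept to the chosen side in the omitted library, and the grey bar the same percentage over all genes tested. Coloured bars run from 52.9% (15 pM library 4) to 94.0%, and grey bars from 11.1% to 25.8%. The grey bars are no chance rate for the chosen genes, whose other libraries already lay apart.

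The fit over all genes is given for reference, with nothing read from its counts, since the rule used the same contrasts. By edgeR's quasi-likelihood test with Benjamini-Hochberg adjustment, 31 of the 90 members (7 leading genes and 24 others) passed an adjusted p of 0.05 as higher at 15 pM than in DMSO, where 0.524% of all genes tested did. As higher at 15 pM than at 150 pM, 76 members passed, and 5.00% of all genes. The 76 became 36 with library totals, 35 with only these 2 groups in the fit, and 35 when 150 pM libraries 8 and 10 were left out. Both comparisons share the 15 pM libraries, and 29 members passed both, as did 0.272% of all genes. A further 14 genes passed both without being members, 13 because their ranges overlapped and 1 because DMSO and 150 pM lay apart. The 31 became 12 when library totals replaced TMM, and 15, 12, 18 and 16 when DMSO library 1, 2, 4 or 5 was left out. The count was 17, 19 or 47 when 15 pM library 1, 2 or 4 was left out. Shares of all genes under these alternatives are not given here, so the changes are not read as a property of the members. With library totals, 31 genes met the rule, 23 of them among the 90 and all 7 leading genes included.

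The rule asked only that the ranges of 150 pM and DMSO overlap. The median log2 difference at 150 pM against DMSO was -0.09 over the 90 members and 0.01 over all genes tested. It ran from -0.89 to 0.24 in the 83 other members and from -2.04 to 0.18 in the leading genes. Of the 90 members, 20 had a higher mean at 150 pM than in DMSO, against 8061 of all 15834. At an adjusted p of 0.05 edgeR, limma voom and DESeq2 each called 0 members, while edgeR called 5.66% of all genes tested. Before adjustment 4, 4 and 5 members had p under 0.05. The share of all genes at that unadjusted threshold is not given here, and the overlap asked for by the rule favours few calls.

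The same rule turned to other groups and directions chose sets of other sizes. It found 271 genes low only at 15 pM, 315 high only at 150 pM, 194 low only at 150 pM, 153 high only in DMSO and 29 low only in DMSO. In the order given, 0, 1, 0, 1 and 0 of these genes had a gap over 3, against 7 of the 90 genes high only at 15 pM. Members in adjacent rows numbered 17, 27, 10, 14 and 0 in those sets. The sets come from the same libraries, and their differences were not tested.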

How the data were processed

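The members, gene lists and tests were chosen with earlier results of these data known. The authors deposited whole-number read counts per gene for 26739 identifiers, not normalized, in 15 liver libraries (TruSeq RNA kit v2, not stranded, per the labels' protocols). Tools named in the submitters' processing notes are STAR 2.4.1d, featureCounts 1.4.6-p4 and CASAVA 1.8.2; for the build, annotation and handling of multi-mapping reads nothing is given in the sources used here. No row lacked an identifier.

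The authors also deposited an RPKM table. Of 105783 values checked, 100% matched library totals recycled down the rows within 0.2% and 7.91% matched their own library's total, so the deposited RPKM served only to recover gene lengths, and RPKM printed here was recomputed from counts.

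In edgeR 4.0.16 (R 4.3.3), filterByExpr (minimum count 10, by group) kept 15834 genes and left out 10905, of which 4495 had 0 counts throughout. The quasi-likelihood F-test (two-sided, all 15 libraries, 1 mean per group) used TMM factors and a Benjamini-Hochberg threshold of 0.05. Alternatives were RLE and upper-quartile factors, library totals, other filters, DESeq2 1.42.0, limma voom (limma 3.58.1), 2 groups only, a replicate block, length trends removed and libraries left out.

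Named genes are the 6 widest gaps, the 4 highest mean CPM at 15 pM, members in adjacent rows, the 2 smallest gaps and the 2 genes just outside. Outside this rule, members with a gap of 3 or less and a mean at 15 pM at least 2-fold that of DMSO, and genes in rows beside the leading ones, were named after their values were seen. Lists of pathway and cell type genes could not be applied, since no identifier has a symbol. No sequences were available to match.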

Additional observations from a re-analysis of the deposited data

Results flagged for a closer look

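The 18 named members and the 2 genes just outside the rule were examined, in each group of 5 libraries, for a library far from the rest, by the gap to its nearest neighbour as a share of the group's range (critical value 0.71). Of 60 groups, 12 were marked. This count is not set against a chance rate. The genes were chosen on these values, and genes of 1 stretch can share the marked library. In 4 of the marked groups DMSO library 4 was the high one. It held 26.0 CPM of Nfu_g_1_007603, where the next DMSO library held 4.69 CPM, and 4.14 CPM of Nfu_g_1_007753, where the next held 0.446 CPM. It also held 1.04 CPM of Nfu_g_1_007560, with the next at 0.157 CPM, and 121 CPM of Nfu_g_1_011760, with the next at 104 CPM. These 3 leading genes stand in 1 stretch of file rows, and all 15 pM libraries still lay above DMSO library 4.

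DMSO library 3 was high for Nfu_g_1_007705, at 0.470 CPM, and DMSO library 1 was low for Nfu_g_1_012446, at 21.9 CPM. At 15 pM, library 1 was high for Nfu_g_1_023228 (187 CPM, next 62.0 CPM) and for Nfu_g_1_013791 (983 CPM, next 304 CPM). Library 4 was high for Nfu_g_1_022401 (12.7 CPM, next 5.59 CPM) and for Nfu_g_1_012898 (102 CPM, next 49.6 CPM). At 150 pM, library 10 was low for Nfu_g_1_007507, at 0.269 CPM, with the next at 0.854 CPM, and library 11 was high for Nfu_g_1_011904, at 0.363 CPM, with the next at 0.125 CPM.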

How the results depend on the processing

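The number of genes meeting the rule, 90, was 31 with library totals in place of TMM (23 shared). It was between 106 and 207 when 1 library was left out and the genes were chosen anew. Fewer libraries then had to lie apart, and the filter and scaling factors were recomputed as well. The parts these played in the change were not separated. The number was 262 (83 shared) without 15 pM library 4 and 150 pM libraries 8 and 10 together, an alternative chosen after seeing the data. Members passing as higher at 15 pM than in DMSO, 31, numbered 12 with library totals, 78 with DESeq2, 18 with only these 2 groups in the fit, 55 without those 3 libraries, and 12 to 47 without 1 library. Those passing against 150 pM, 76, numbered 36 with library totals, 35 with 2 groups only, 35 without 150 pM libraries 8 and 10, and 38 without those 3 libraries. The share of all genes passing under each alternative is not given here, so nothing about the members is read from these counts. The cause of the changes was not tested. Both median log2 differences moved by less than the spread between libraries under each alternative run for them, where the replicate block was run only at 15 pM against DMSO. Between 150 pM and DMSO 0 members passed in each alternative run, with 84 of the 90 tested when only these 2 groups were in the fit. Of 950 values of the 18 named members under alternatives, 929 stayed within the spread, 21 moved and 0 reversed. Members in adjacent rows, 7, numbered 11 without 15 pM library 2 and 13 without 15 pM library 4.

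Libraries of DMSO and 15 pM share the numbers 1 to 5, and their deviations correlated at -0.00399, 0.0157, 0.0914, -0.0525 and 0.0531 by number. No 15 pM library correlated best with the DMSO library of its own number, so the numbers are not taken to pair them. The best partner of each DMSO library was not examined. With the number as a replicate block, 1 member passed as higher at 15 pM than in DMSO. That member was Nfu_g_1_007507, so the other leading genes did not pass under this setting. The share of all genes passing with the block is not given here, so nothing about the members is read from the count. Depth limits the leading genes outside 15 pM, where a group held as few as 9 counts.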
